A study of Mus musculus with 22 samples.

Results

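Replication-dependent histone genes were the subject: every gene whose symbol starts with Hist1h, Hist2h, Hist3h or Hist4h, taken at any level of expression. Symbols with the pseudogene ending -ps were left out. There were 67 of them among 21880, 26097 and 25676 genes in the 3 deposited tables, the same 67 in each. By name 6 belong to linker histone H1, 20 to H2A, 17 to H2B, 11 to H3 and 13 to H4. The annotation used below lists Hist1h2aj and Hist1h2al as pseudogenes and Hist2h2bb as a long noncoding RNA, and these were kept. Total RNA was sequenced from sorted B220+CD93+ B cells of mouse spleen, the immature B cell compartment, in 22 libraries of 7 groups. In experiment 1, 3 libraries from Tcrd-GDL mice given diphtheria toxin (DTx, injected 2 times at 15 ng for each g of body weight with 48 h between, cells taken 8 days after the first dose) were set against 3 from untreated Tcrd-GDL mice; the former are referred to as depleted. Experiment 2 had 2 depleted and 5 untreated Tcrd-GDL libraries and a toxin control of 3 libraries from Tcrd-H2BeGFP mice given the same toxin course. For the culture experiment, untreated Tcrd-H2BeGFP mice gave immature B cells that were kept in vitro on their own (3 libraries) or together with gamma delta T cells (3 more). Tcrd-GDL mice are known to express a diphtheria toxin receptor from the Tcrd locus, so that toxin removes gamma delta T cells, and the comparisons ask what changes in immature B cells when those cells are removed or added. Whether a library stands for its own animal is not in the labels, so a p-value here measures spread among libraries that may be technical. The toxin control differed from the untreated group of experiment 2 in strain and in toxin, and these cannot be told apart; its strain name refers to an H2B fusion to green fluorescent protein, and the part of that reporter in H2B values was not tested.

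Replication-dependent histone genes supply the nucleosome proteins that package newly made DNA, and their mRNAs are made in bulk during S phase. These are the mRNAs of animal cells that end, as a rule, in a stem-loop instead of a poly(A) tail; stem-loop binding protein (SLBP) holds that hairpin through 3′ end processing by the U7 particle, translation and decay. NPAT, a cofactor held at the histone gene clusters, couples their transcription to cyclin E and CDK2. During B cell development large precursors divide and immature B cells are mostly at rest, and some histone genes also make polyadenylated transcripts in cells that do not divide.

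The hairpin is the element the members share that the choice by name did not use. In the GENCODE M21 transcripts (mm10/GRCm38), which held 65 of the 67 members by identifier, the pattern GGNNNTTTNNANNNCC with 6 paired stem positions was found on the sense strand in 41 members, against 106 of 21901 protein-coding genes (0.484%). The forms are shown because they split by histone class; capitals mark the stem and lower case the loop. The form in Hist1h1c was found in 23 members, Hist1h3b included, that in Hist1h3e in 6 and that in Hist2h2ac in 1; among H4 genes the form in Hist1h4n was found in 7 and the others in 2 each.
Hairpin of Hist1h1c and 22 others: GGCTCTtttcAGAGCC
Hairpin of Hist1h3e and 5 others: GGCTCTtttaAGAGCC
Hairpin of Hist2h2ac: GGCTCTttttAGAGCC
Hairpin of Hist1h4n and 6 others: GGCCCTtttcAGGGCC
Hairpin of Hist1h4i and Hist2h4: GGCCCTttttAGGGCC
Hairpin of Hist1h4b and Hist1h4j: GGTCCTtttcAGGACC
All 30 hairpins of H1, H2A, H2B and H3 genes had the GGCTCT stem, while the 11 of H4 genes had GGCCCT (9) or GGTCCT (2). A member without a match has no such letters in its annotated transcript, many of which end near the stop codon.

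Promoters also separated the classes. RefSeq promoters (GRCm38.p6; 250 bases before to 50 after a start) were matched for 60 members, and motifs were counted on both strands. CCAAT, the box bound by NF-Y, was in all 6 H1, 18 H2A, 15 H2B and 9 H3 promoters but in 3 of 12 H4 promoters (25.0%), against 37.9% of all 27025 promoters. The octamer ATTTGCAT, bound by OCT1 and OCT2, was in 7 of 18 H2A and 5 of 15 H2B promoters, in none of the other classes and in 1.75% of all promoters. AAACACA, the H1 box, was in 5 of 6 H1 promoters against 7.14% of all promoters, and GGTCCG, the core of the H4 site bound by HINFP, was in 11 of 12 H4 promoters against 8.39%. TATAAA was in 56.7% of member promoters and 14.2% of all. These motifs may overlap one another, and a match is a description of letters. A promoter of each kind is shown for members described below, ending at the base before the start, with the motifs in capitals (the reverse complements of the octamer and of CCAAT read ATGCAAAT and ATTGG).
Hist1h1c, linker H1, chr13:23738657-23738806, plus strand: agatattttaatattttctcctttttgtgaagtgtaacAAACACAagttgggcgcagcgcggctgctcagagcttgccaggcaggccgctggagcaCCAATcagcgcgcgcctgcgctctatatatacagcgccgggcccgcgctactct
Hist1h2ac, H2A, chr13:23683960-23684159, minus strand: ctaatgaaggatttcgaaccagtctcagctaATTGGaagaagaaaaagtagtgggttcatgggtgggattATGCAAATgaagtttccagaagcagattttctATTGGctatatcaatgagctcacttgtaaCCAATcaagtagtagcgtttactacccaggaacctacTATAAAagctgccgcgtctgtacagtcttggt
Hist1h3b, H3, chr13:23752195-23752344, plus strand: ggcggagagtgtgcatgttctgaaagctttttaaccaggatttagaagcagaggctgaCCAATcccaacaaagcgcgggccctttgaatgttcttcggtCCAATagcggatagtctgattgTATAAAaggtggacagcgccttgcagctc
Hist1h4n, H4, chr13:21832198-21832347, minus strand: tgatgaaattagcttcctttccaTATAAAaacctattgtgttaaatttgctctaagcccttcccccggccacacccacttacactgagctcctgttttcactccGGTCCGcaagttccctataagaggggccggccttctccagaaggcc

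Most members lie in the Hist1 cluster of chromosome 13, with 23 members between 21 and 22 Mb and 29 between 23 and 24 Mb, and 59 of the 65 annotated members have a single exon. The members are close copies of one another: 13 had at least 85% of their 75-base windows in another annotated transcript and 15 had under 20%, so the authors' counting could split or drop reads between copies. The H3 genes Hist2h3b, with all of its windows in another transcript, and Hist2h3c2, with 62.6%, had 851 to 1159 and 3.7 to 13.5 normalized counts in the untreated group of experiment 2; the part of shared reads in this difference was not tested. Members below a table mean of 10 normalized counts were not tested. They were 9 in experiment 1, 9 in experiment 2 and 8 in the culture table, with means from 0.140 to 8.81, and the median share of copied windows was 92.4%, 89.0% and 90.8% in them against 37.7%, 37.7% and 38.5% in the members tested. Hist1h2aa, Hist1h2al, Hist1h2ao, Hist1h2ap, Hist1h2bq, Hist2h2aa2 and Hist2h3c2 were below that mean in all 3 tables. The 58, 58 and 59 members that passed include every H1 gene. Genes annotated on the other strand lie over 23 members. Of these genes Gm15444, Gm20632, Gm20633, Gm20628 and 4930558J22Rik had values in experiment 2, with a highest mean of 124. Whether reads were counted by strand is not given in the sources used here.

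Whole reads recovered from the normalized counts numbered between 9794413 and 20343954 per library in experiment 1, between 22022330 and 36840455 in the experiment 2 table and between 17505909 and 28729574 for cultured cells. The sort marker Cd93 had group means between 689 and 2082 normalized counts. The summed level of gamma delta T cell markers was at most 7.75 normalized counts, in the toxin control of experiment 2. Of the 4 markers listed, 2 were in the experiment 1 table and 3 in each other table. Trdc was missing from the experiment 1 and culture tables, so the sums there do not cover it. Some libraries stood apart. The first depleted library of experiment 1 had 3.06 normalized counts of Xist, the RNA of the inactive X chromosome of females, and 569 of Ddx3y, a Y-linked gene, where the other 5 had at least 9304 and at most 40.0, and the libraries numbered 3 in both culture groups had 228 and 265 of Xist and 817 and 927 of Ddx3y. Results are given with and without the first depleted library of experiment 1 and library 3 with gamma delta T cells. Library 3 cultured alone was left out only within the ranges over every library given at the end.

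Linker histone H1 made up the largest part of the signal. In the untreated group of experiment 2 the members summed to 109929, 113624, 144553, 121296 and 87805 normalized counts, 0.364% ± 0.035 (SD, n = 5) of each library, and the 6 H1 genes held 55.9% ± 2.06 (SD, n = 5) of that sum. Hist1h1c, the main somatic H1 subtype in this table, held 31.1% ± 1.79 (SD, n = 5) alone. Long transcripts gain reads, so genes were compared per kb of annotated exon. Hist1h1c led with 23066 ± 4731 normalized counts per kb (SD, n = 5), followed by Hist1h1e with 7908 ± 1251. Among core histones the order was Hist2h2ac (6324 ± 1517 per kb), Hist1h4c (5082 ± 1273), Hist1h2ak (5071 ± 442), Hist1h4d (4864 ± 906), Hist1h4h (4687 ± 1009) and Hist1h2ai (4555 ± 804), and neighbours in that order differed by less than their spread over libraries. By this measure Hist1h3e (3450 ± 600) was the highest H3 gene and Hist1h2bg (2927 ± 561) the highest H2B gene. Hist1h2bn, with 919 to 1301 normalized counts over 381 bases, lay close to Hist1h2bg. The order depends on the annotated exon length. Hist1h2be had 1751 to 3802 normalized counts over 4446 bases, and Hist1h2bg 1429 to 2319 over 618 bases. Hist1h1t, the testis-specific H1, had the lowest mean of the tested members in experiments 1 and 2, 12.7 and 18.4 normalized counts. The sums by class are plotted for every library.

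**Figure D1:**
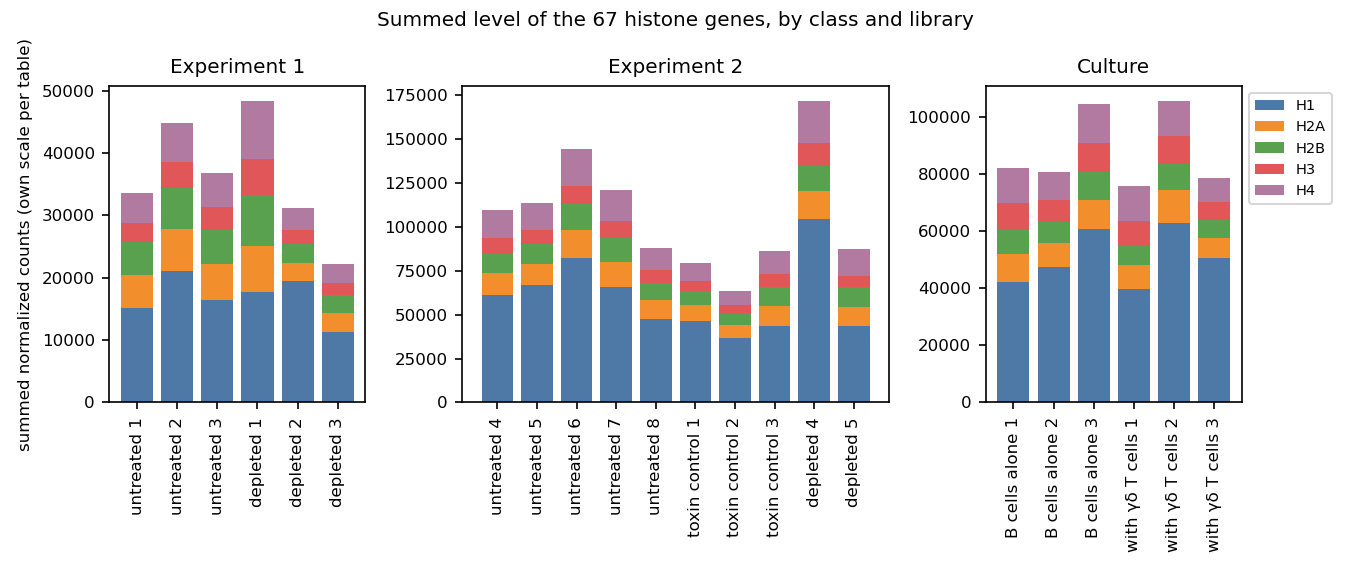
Stacked bars give the summed normalized counts of the 67 members per library (vertical axis, own scale per table), coloured by histone class. In experiment 2 the toxin control libraries sum to 79517, 63696 and 86028, below all 5 untreated libraries, and the depleted libraries to 171745 and 87600; tables were scaled separately, so levels are compared within a table only.

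No histone gene passed the test in experiment 1, and the depleted libraries were spread on both sides of the untreated ones. All 58 tested members had a log2 difference (depleted minus untreated) below 0, with a median of -0.54 and a range from -1.59 to -0.03; over all 11701 tested genes 52% were below 0 and the median was -0.01. limma with Benjamini-Hochberg adjustment called 0 members and 0 of 11701 genes (0% called), and 3 members had an unadjusted p under 0.05, as did 8.83% of all genes; edgeR and DESeq2 on the recovered reads called 0 members too. The H2A genes Hist1h2ab, Hist2h2ac and Hist3h2a were the 3. Hist1h2ab was at 627, 152 and 179 normalized counts in the depleted libraries and 496, 607 and 523 in the untreated (log2 difference -1.07, SE 0.43, adjusted p = 0.541). The first depleted library was the highest of all 6 for that gene and the other 2 were the lowest. Hist3h2a, the H2A gene of the small Hist3 cluster, was at 32.1, 45.3 and 40.4 against 54.3, 55.7 and 61.9 (log2 difference -0.54, SE 0.22, adjusted p = 0.542). It was the only member whose groups did not overlap, where 15.2% of all genes did not (7.88% lower, 7.29% higher).

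The same split ran through the cluster. The first depleted library was the highest of the 6 for 44 of 58 members, and the lowest library was depleted library 2 for 25, depleted library 3 for 31 and depleted library 1 for 2, never an untreated one. Against the untreated mean, the median member stood at 0.53, -0.83 and -1.08 in the depleted libraries 1 to 3 and at -0.19, 0.21 and -0.02 in the untreated. Without the first depleted library, limma called 46 of 58 members, all lower, with a median of -1.03 (9.38% of all genes called, 5.28% lower), a fit with 2 depleted libraries left. Hist1h3b showed the split, with 846, 90.5 and 116 normalized counts in the depleted libraries against 276, 430 and 314. Mki67, a marker of dividing cells, was at 193, 46.3 and 105 in the depleted libraries and 131, 150 and 125 in the untreated, and Rrm2, the S phase subunit of ribonucleotide reductase, at 237, 46.3 and 58.97 against 124, 155 and 174. Rn7sk, a structural RNA that also lacks a poly(A) tail, was at 145239, 84180 and 54468 against 96067, 96733 and 97675. These genes were highest in the first depleted library, as most members were. The 8 T cell markers summed to 1932 to 2393 normalized counts in the depleted libraries and 2465 to 2658 in the untreated. The part of these genes in the histone values was not tested.

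Linker histones took a different share in the libraries where the core histones were low. Hist1h1c was at 7681, 11658 and 6513 normalized counts in the depleted libraries and 7478, 10467 and 7852 in the untreated (log2 difference -0.03, SE 0.21, adjusted p = 0.974), so its groups overlapped. The H1 share of the summed counts was 36.8%, 62.5% and 50.9% in the depleted libraries, against 44.6% to 47.1% in the untreated. By class the median log2 difference was -0.31 for H1, -0.59 for H2A, -0.64 for H2B, -0.42 for H3 and -0.60 for H4. Members with an annotated transcript over 1000 bases or with several exons had a median of -0.31 (15 members) and the other annotated members, with short single-exon transcripts, -0.61 (41 members). Hist2h2be, an H2B gene with a long polyadenylated form in resting cells, stood at -0.11 and Hist1h2bc at -0.26, neither past the test.

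**Figure D2:**
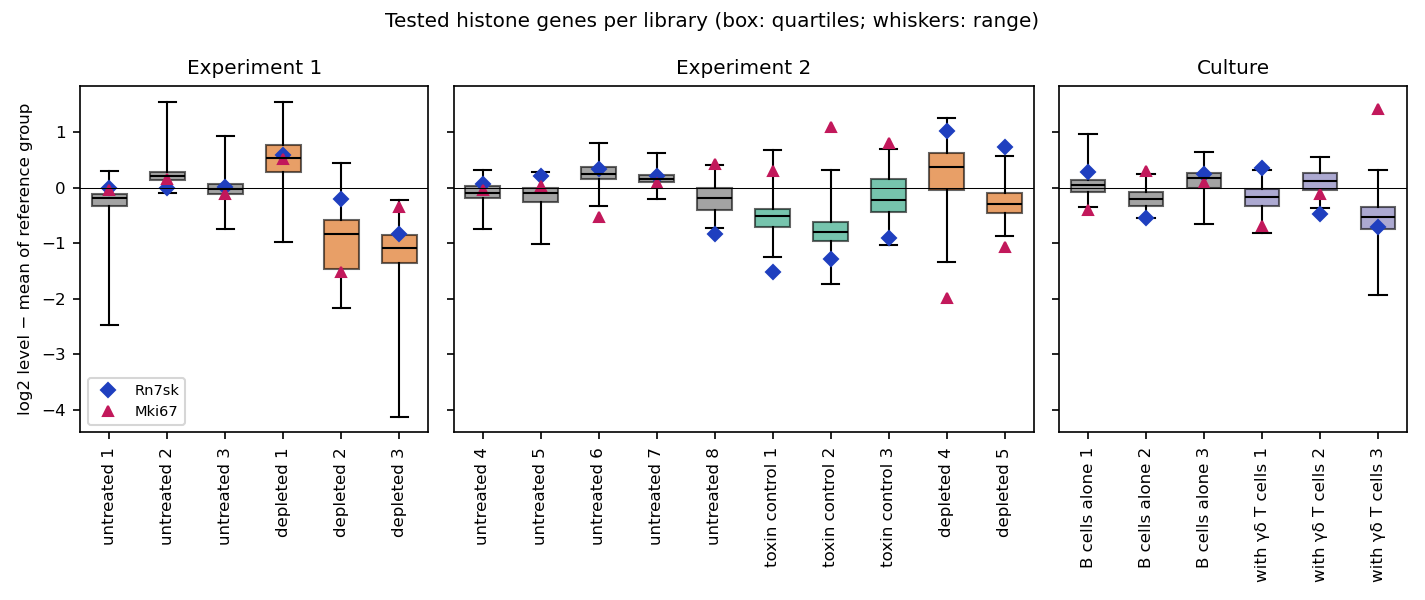
Boxes (quartiles, with the median as a line and the range as whiskers) give the tested members' log2 level in each library minus the mean of the reference group of its table, untreated or cultured alone; diamonds give Rn7sk and triangles Mki67 on the same scale. In experiment 1 the median of the first depleted library lies at 0.53 and those of the other depleted libraries at -0.83 and -1.08; in experiment 2 the second toxin control library is the lowest at -0.80.

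In experiment 2 every histone gene that changed between the toxin control and the untreated group was lower in the toxin control. limma called 21 of 58 members lower and none higher, where 15.7% of all 13364 genes were called, 8.34% lower and 7.32% higher, and 32 members had an unadjusted p under 0.05 (31.8% of all genes). The median log2 difference was -0.44 over the members and 0.00 over all genes, and 53 members were below 0, against 49.9% of all genes. Among the members 16 had groups that did not overlap, all lower in the toxin control (11.7% of all genes). The called members were 8 of 12 H4 genes, 5 of 15 H2A, 4 of 15 H2B, 4 of 10 H3 and 0 of 6 H1.

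Hist1h4n, an H4 gene, had the largest change, at 989, 969, 1371, 1180 and 858 normalized counts in the untreated libraries and 445, 317 and 575 in the toxin control (log2 difference -1.29, SE 0.20, adjusted p = 0.0026, limma). Hist1h2ad, an H2A gene, was at 300, 299, 341, 287 and 239 against 138, 119 and 142 (log2 difference -1.13, SE 0.17, adjusted p = 0.0021). In both, every toxin control library lay below every untreated one, with the second toxin control library lowest. Hist1h2ac and Hist1h2bc, an H2A and H2B pair that share the octamer-bearing promoter shown above, fell together. Hist1h2ac was at 2090, 2035, 2785, 2589 and 1577 against 1097, 933 and 1276 (log2 difference -0.99, SE 0.17, adjusted p = 0.0042), and Hist1h2bc at 1483, 1604.6, 2119, 1751 and 1199 against 910, 731 and 1094 (log2 difference -0.83, SE 0.16, adjusted p = 0.0058). Neither pair of groups overlapped. Hist1h4b, Hist1h4c, Hist1h2ai and Hist1h3a fell by 0.84, 0.89, 0.70 and 0.80 on the log2 scale (adjusted p = 0.0073, 0.0086, 0.0091 and 0.010). The other 13 called members were Hist1h4h, Hist1h4i, Hist1h4d, Hist4h4, Hist2h4, Hist1h3d, Hist1h3h, Hist1h3i, Hist1h2ae, Hist2h2ab, Hist1h2bg, Hist1h2bf and Hist1h2be.

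Hist1h1c did not pass, although its groups were apart: 35222, 37519, 46130, 35635 and 25408 normalized counts in the untreated libraries and 24721, 20282 and 23325 in the toxin control (log2 difference -0.64, SE 0.22, adjusted p = 0.056). Hist2h2ac stood at -0.42 (adjusted p = 0.109), Hist1h3e at -0.48 (adjusted p = 0.111), Hist2h2be at -0.27 (adjusted p = 0.174) and Hist3h2a at 0.03 (adjusted p = 0.938). Hist1h3b (-0.15) and Hist1h2af (0.11), which are described again below, did not pass either. The toxin control's second library was the lowest of all 10 for 45 of 58 members. Without it 3 members were called, all lower, with a median of -0.30 (1.47% of all genes called, 0.898% lower). Without untreated replicate 6 or 7 there were 13 in each case. Over every library left out in turn, 3 to 28 members and 196 to 2994 of 13364 genes were called.

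Length, structural RNAs and markers of dividing cells moved with this comparison as well. Of the 1806 tested genes whose longest transcript is at most 1000 bases, 17.2% were called lower and 1.16% higher, with a median of -0.25, against a median of 0.02 over longer genes. Rn7sk was at 353418, 388544, 424542, 389578 and 189129 normalized counts in the untreated libraries. In the toxin control it was at 117670, 137896 and 179933 (log2 difference -1.23, adjusted p = 0.010, limma). Rmrp, Terc and Rpph1, also short RNAs made without a poly(A) tail, fell by 1.24, 1.17 and 0.84 (adjusted p = 0.0047, 0.0076 and 0.048). Of 6 structural RNAs without a poly(A) tail that were tested, these 4 were called lower. The other 2 were above 0, the highest at 0.25, and were not called. Mki67 rose instead, from 169, 178, 120, 184 and 233 to 213, 373 and 304 (log2 difference 0.74, adjusted p = 0.048). Of 8 T cell markers 4 were called higher in the toxin control, as were 1 of 5 NK and 1 of 6 myeloid markers; the T cell markers summed to 6409 to 6930 normalized counts against 5630 to 6655 in the untreated group, the NK markers to 273 to 405 against 131 to 448 and the myeloid markers to 906 to 1400 against 444 to 1329. Erythroid markers went the other way: all 5 tested were below 0, with a median of -1.24, and 0 were called. They summed to 283 to 1651 normalized counts in the toxin control and 852 to 2423 in the untreated group. The sort marker Cd93 was higher by 0.81 (log2, called). The part of these genes in the histone result was not tested. With the mean log2 level of Rn7sk, Rmrp, Rpph1 and Terc as a term, a model chosen after seeing the data, 0 members and 3 genes were called. The member median was then 0.09. These 4 RNAs were themselves called lower in the toxin control, so this fit cannot separate their level from the group. Bulk libraries cannot tell fewer cells with histone mRNA from less histone mRNA per cell.

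**Figure D3:**
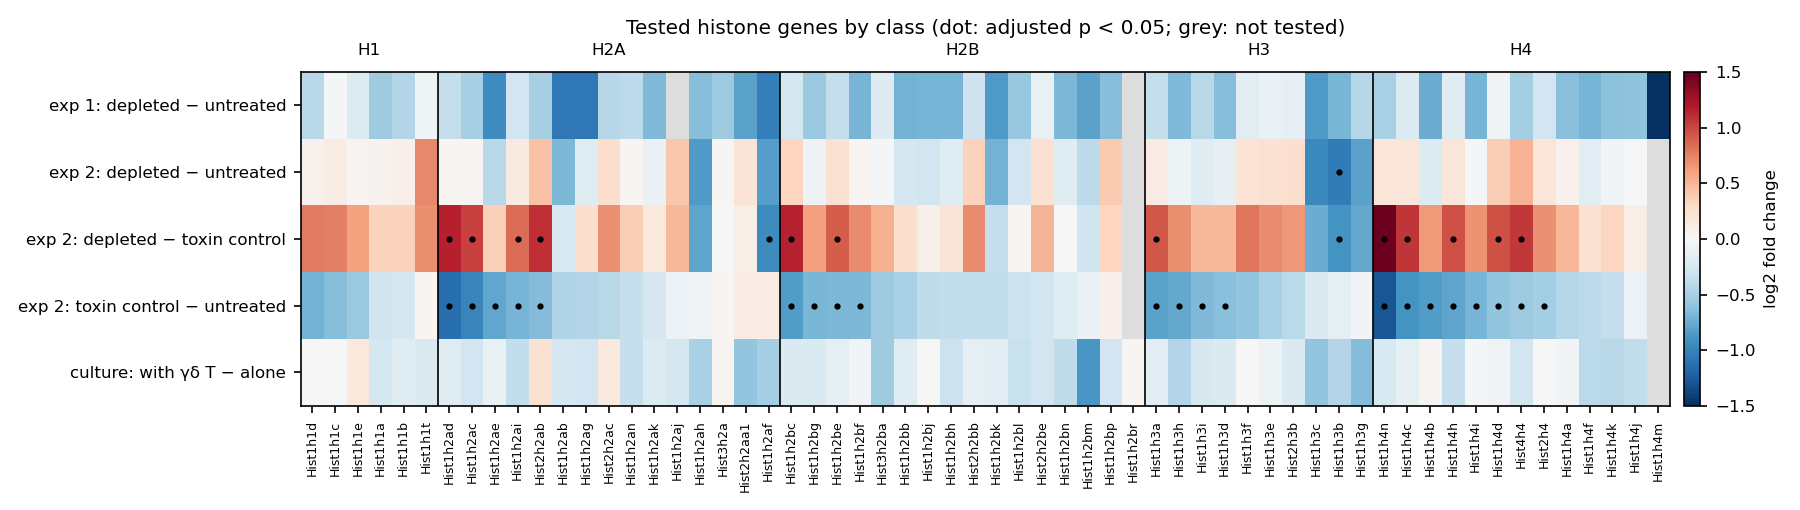
Colours give the log2 difference of each tested member (columns, by histone class) in the 5 comparisons (lines), red for higher and blue for lower, with the scale ending at 1.5 in both directions; a dot marks an adjusted p under 0.05 by limma and grey a member not tested. The line for toxin control against untreated holds 21 dots, all on blue, and none among the 6 H1 genes.

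Depleted against toxin control, the other comparison of experiment 2 that uses the same 3 toxin control libraries, gave 12 members higher and 2 lower in the depleted group. Of all genes 9.07% were called, 4.58% higher and 4.49% lower. The groups differed in strain (Tcrd-GDL against Tcrd-H2BeGFP) as well as in the removal of gamma delta T cells, and these cannot be told apart. The median log2 difference was 0.50 over the members and 0.00 over all genes, 9 members were below 0 (50.2% of all genes), and 34 had an unadjusted p under 0.05 (26.9% of all genes). Hist1h2bc was at 2266 and 1775 normalized counts in the depleted libraries and 910, 731 and 1094 in the toxin control (log2 difference 1.16, SE 0.20, adjusted p = 0.0042). Hist1h4n was at 1660 and 875 against 445, 317 and 575 (log2 difference 1.48, SE 0.25, adjusted p = 0.0045), and Hist1h2ad at 388 and 229 against 138, 119 and 142 (log2 difference 1.17, SE 0.21, adjusted p = 0.0058). All 3 had groups that did not overlap, and depleted replicate 4 was higher than replicate 5 in each. Hist4h4, the single member of the Hist4 locus, was at 1224 and 946 against 519, 448 and 591 (log2 difference 1.06, SE 0.21, adjusted p = 0.0084). Hist1h2ac, Hist1h4c, Hist2h2ab and Hist1h2ai rose by 1.02, 1.08, 1.10 and 0.84 (adjusted p = 0.012, 0.015, 0.015 and 0.017), and Hist1h4d, Hist1h4h, Hist1h3a and Hist1h2be were also higher. Of these calls 12 were also called between toxin control and untreated; both comparisons use the toxin control libraries.

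The members called lower in depleted cells were Hist1h3b and Hist1h2af. Hist1h3b, an H3 gene, was at 248 and 314 normalized counts in the depleted libraries and 444, 430 and 734 in the toxin control (log2 difference -0.90, SE 0.23, adjusted p = 0.026), and Hist1h2af, an H2A gene, at 284 and 440 against 578, 546 and 988 (log2 difference -0.94, SE 0.25, adjusted p = 0.033). Neither pair of groups overlapped. Non-overlapping groups were found for 24 members, 20 higher and 4 lower in the depleted group (Hist1h2af, Hist1h2ah, Hist1h3b and Hist1h3g), against 42.1% of all genes, 21.1% higher and 20.9% lower. None of the 6 H1 genes passed, with a median of 0.65; Hist1h1c stood at 0.75 (adjusted p = 0.091), Hist2h2be at 0.50 (adjusted p = 0.069) and Hist3h2a at -0.01. Of 12 H4 genes 5 were called, with a median of 0.68. The calls rest on depleted replicate 4: without it 0 members were called and the median was 0.20 (0.292% of all genes called), and without replicate 5, 31 were called higher and 3 lower with a median of 0.84 (20.3% of all genes). Without toxin control replicate 2, 4 members were called higher and 1 lower. The share of all genes in that fit is not given here, so these counts have no baseline. Rn7sk, at 687091 and 560911 in the depleted libraries, was higher by 2.12 and Mki67, at 42.8 and 81.6, was lower by 2.27 (log2, both called). Of the 6 structural RNAs tested, 4 were called higher, while 2 were below 0, the lowest at -0.68, and were not called. Among short genes 12.4% were called higher and 1.16% lower. T cell, NK and myeloid markers were mostly lower in the depleted group, with 2 of 8, 1 of 5 and 2 of 6 called lower. They summed to 5783 to 6007, 87.7 to 185 and 351 to 543 normalized counts. Erythroid markers went the other way: all 5 tested were above 0, with a median of 0.45, and 0 were called. They summed to 327 to 4362 in the depleted group and 283 to 1651 in the toxin control. The part of these markers was not tested. With the structural RNA term 0 members and 2 genes were called and the member median was -0.53. Rn7sk, a part of that term, was itself called, so this fit cannot separate the term from the group.

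**Figure D4:**
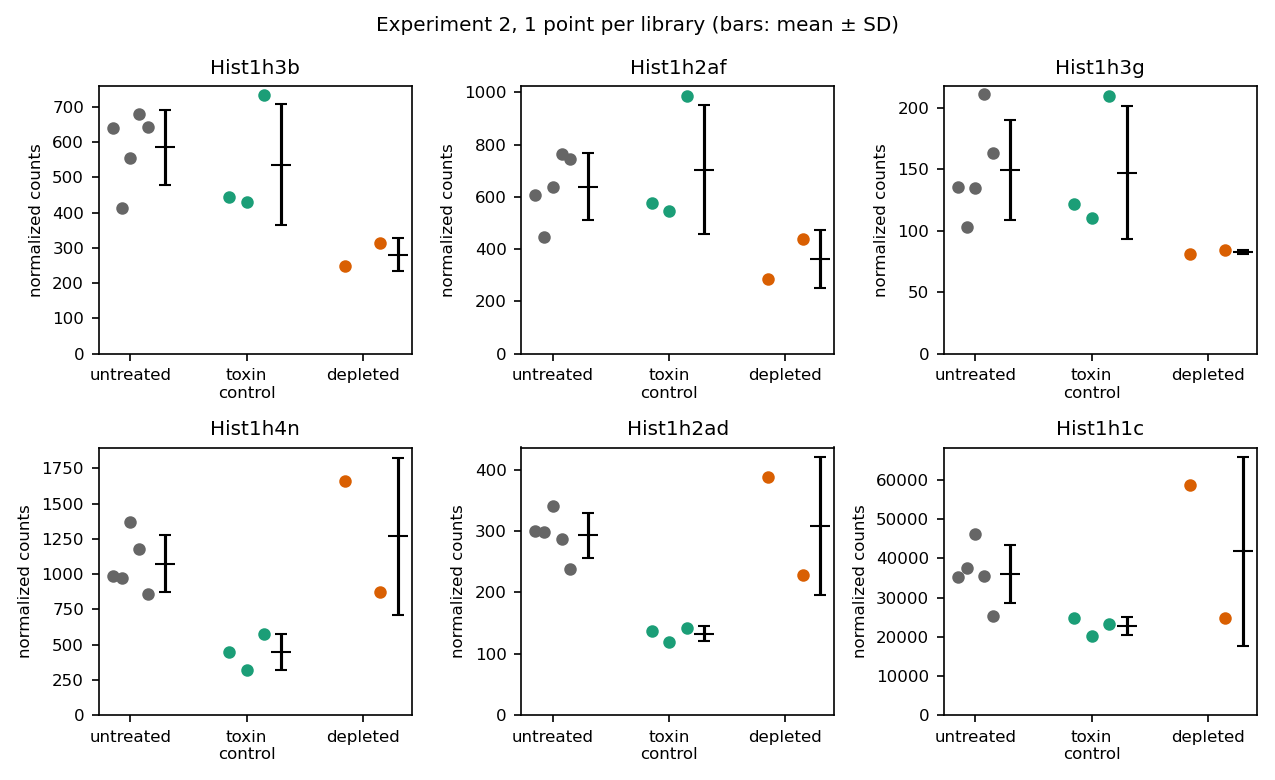
Points give the normalized counts of 6 members in each library of experiment 2, beside the group mean and SD (bars), on axes that start at 0. Hist1h4n and Hist1h2ad are lowest in the toxin control, and Hist1h3b, Hist1h2af and Hist1h3g in the depleted libraries; for Hist1h1c 1 depleted library lies above and 1 below all 5 untreated ones.

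Depleted and untreated libraries of experiment 2, both from Tcrd-GDL mice, gave a member median near 0. limma called 1 member, lower, where 0.299% of all genes were called (40 of 13364), and 25 members were below and 33 above 0 with a median of 0.03, where 50.5% of all genes were below 0. The called member was Hist1h3b, at 639, 412, 555, 679 and 642 normalized counts in the untreated libraries and 248 and 314 in the depleted (log2 difference -1.05, SE 0.21, 95% confidence interval -1.49 to -0.60, adjusted p = 0.043). Both depleted libraries lay below all 5 untreated ones. DESeq2 kept this call. It was lost in edgeR, under quantile normalization, with a table mean of at least 50, with only the 2 groups in the fit, and without depleted replicate 4, untreated replicate 4, 6, 7 or 8 or toxin control replicate 1 or 2, while the log2 difference stayed between -1.22 and -0.88 whichever library was left out. At an unadjusted p under 0.05 there were 7 members, against 9.79% of all genes. Non-overlapping groups were found for 9 members, all lower in the depleted group: Hist1h2ab, Hist1h2ae, Hist1h2af, Hist1h2ah, Hist1h2bb, Hist1h2bm, Hist1h3b, Hist1h3c and Hist1h3g (6.56% of all genes lower, 5.78% higher).

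None of the other 8 passed the test, and their values ran as follows. Hist1h3c was at 307, 225, 268, 343 and 313 normalized counts in the untreated libraries and 114 and 190 in the depleted (log2 difference -0.96, SE 0.27, adjusted p = 0.180), and Hist1h2af at 606, 447, 636, 763 and 745 against 284 and 440 (log2 difference -0.83, SE 0.23, adjusted p = 0.187). Hist1h2ah was at 96.0 to 171 against 65.8 and 67.6 (-0.85, adjusted p = 0.204), and Hist1h2ab stood at -0.68 (adjusted p = 0.204). Depleted replicate 4 had the lower value for Hist1h3b, Hist1h3c and Hist1h2af, although it was the highest of all 10 libraries for 29 of the 58 members. All 6 H1 genes were above 0, with a median of 0.07. Above 0 too were 8 of 12 H4 genes (median 0.12), 9 of 15 H2A, 6 of 15 H2B and 4 of 10 H3 genes. Hist1h1c, at 58881 and 24780, had 1 depleted library above and 1 below all 5 untreated ones (log2 difference 0.11, adjusted p = 0.936, limma). All 7 Hist2 genes were above 0 with a median of 0.25, and so were 14 of the 15 members with a long or spliced transcript, with a median of 0.20, while 22 of 41 members with short single-exon transcripts were below 0 with a median of -0.02. Hist4h4 stood at 0.52 (adjusted p = 0.339) and Hist1h2bc at 0.32 (adjusted p = 0.590). Mki67 fell by 1.53 (adjusted p = 0.029), and Rn7sk stood at 0.88 (adjusted p = 0.309). The median member's level in the depleted libraries was 0.37 (replicate 4) and -0.29 (replicate 5) against the untreated mean. Leaving out either depleted library leaves 1 in that group, so effect sizes alone are given here. The member median was 0.37 without replicate 5 and -0.29 without replicate 4.

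Position along chromosome 13 was read from the gene order. In the toxin control against untreated comparison 8.34% of all 13364 genes were called lower, and 17.2% of genes of at most 1000 bases. Beside these shares, 13 of 28 members tested between 23 and 24 Mb were called lower, with a median of -0.61. Between 21 and 22 Mb there were 5 of 18, with a median of -0.35. The difference between the blocks was not tested. Members with under 50% of windows shared with another transcript gave 13 calls of 33 and those with at least 50% gave 8 of 23, so calls were found among both. There were 11 H2A and H2B pairs transcribed away from each other, with starts 176 to 302 bases apart. Values of the pairs were set side by side: Hist1h2ad fell by 1.13 and Hist1h2bf by 0.67, Hist1h2ae by 0.78 and Hist1h2bg by 0.68, while Hist1h2ai fell by 0.70 beside Hist1h2bl, which did not pass at -0.33. In the remaining tested pairs neither gene passed; Hist1h2ah and Hist1h2bk stood at -0.05 and -0.36, and Hist1h2ak and Hist1h2bn at -0.25 and -0.18. The H2A gene had the larger fall in the 4 pairs with a called gene.

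**Figure D5:**
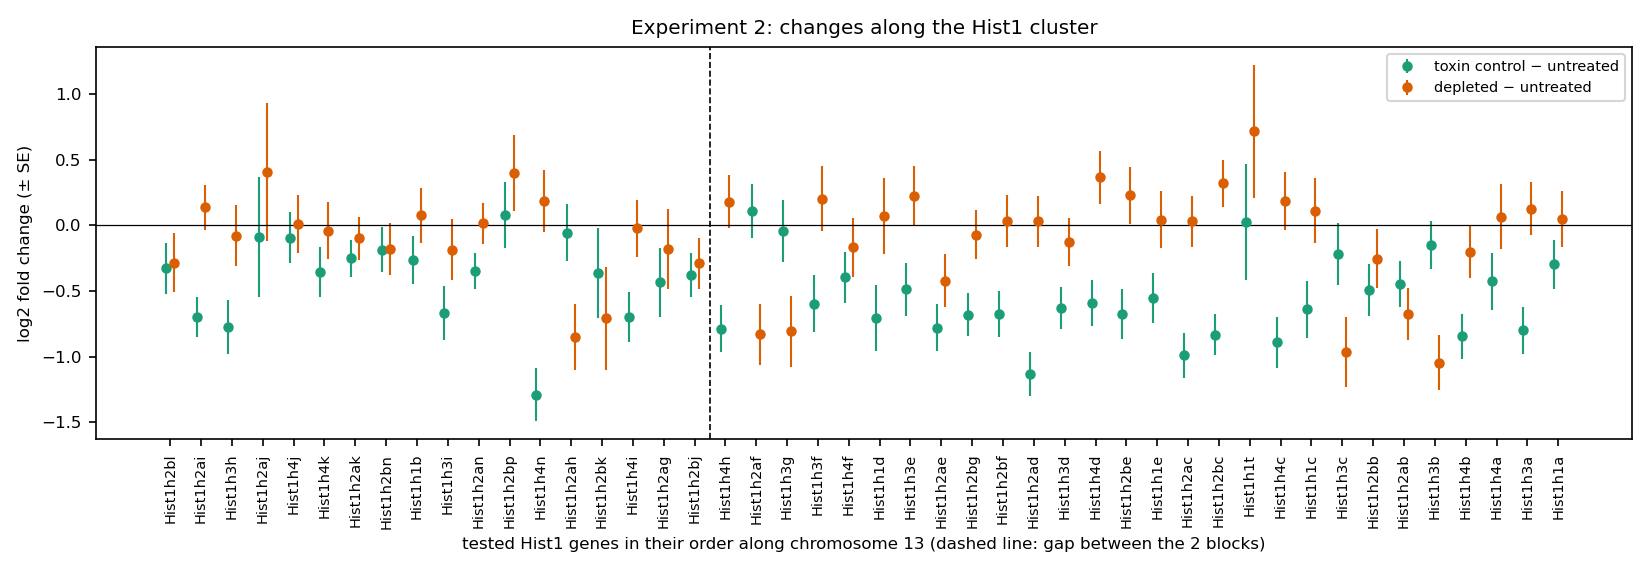
Points give the log2 difference with its SE (bars) of the tested chromosome 13 members in gene order, for toxin control minus untreated (green) and depleted minus untreated (orange); the horizontal axis is order, not distance, and the dashed line marks the gap between the blocks. The green points lie below 0 for most members, Hist1h4n lowest at -1.29, and the orange points are lowest at Hist1h3b, -1.05.

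Genes that transcribe, process and deposit histones were grouped by function. Of all 13364 genes tested in experiment 2, 7.32% were called higher and 8.34% lower in toxin control against untreated. The shares were 4.58% higher and 4.49% lower in depleted against toxin control, and 0.299% were called in depleted against untreated. Counts per list are to be read beside these shares. Of 22 tested genes for histone mRNA processing and transcription, 3 were called higher in the toxin control than in the untreated group (Casp8ap2, a cofactor of U7 processing, 0.41; Pou2f1, which encodes OCT1, 0.40; Npat 0.37, adjusted p = 0.025) and 1 lower (Mif4gd, which helps SLBP in translation, -0.37). Slbp did not pass in experiment 2, at -0.11 in toxin control against untreated, 0.14 in depleted against toxin control and 0.03 in depleted against untreated. In depleted against toxin control Npat and Cpsf2, an endonuclease-complex subunit, were lower by 0.46 and 0.36 and Cdk2 higher by 0.52. Of 21 histone chaperones 4 were called higher and 1 lower in the toxin control against untreated; Supt16 and Ssrp1, the subunits of FACT, were at 0.46 and 0.39 and Rbbp4 at -0.36. Of the 9 tested variants made outside S phase, 4 were lower (H3f3a -0.73, adjusted p = 0.0065; H2afz -0.37, H2afv -0.41 and H2afj -0.36) and 1 higher (H2afy 0.39). DNA replication genes gave 2 lower and 1 higher of 39 in that comparison and 5 lower in depleted against toxin control, and mitosis genes 3 higher and then 11 lower of 24. In depleted against untreated no gene of the processing, chaperone, variant or replication lists was called, and in experiment 1 none of any list.

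In culture, no histone gene passed the test without a replicate term between cells kept with gamma delta T cells and cells kept alone. limma called 0 of 59 members, against 2.16% of all 12386 genes and 0.769% of short genes called lower, and edgeR and DESeq2 called 0 too. The median log2 difference (with gamma delta T cells minus alone) was -0.22 over the members and 0.00 over all genes, 50 of 59 members were below 0 (50.8% of all genes), and 3 had an unadjusted p under 0.05 (12.6% of all genes). Hist1h2ai was at 1129, 941 and 1172 normalized counts alone and 838, 913 and 748 with gamma delta T cells (log2 difference -0.37, SE 0.13, adjusted p = 0.206). Hist1h2bm was at 174, 185 and 146 against 133, 130 and 43.0 (log2 difference -0.87, SE 0.34, adjusted p = 0.282). Both had groups that did not overlap, as did Hist1h4j, all lower with gamma delta T cells (10.4% of all genes lower, 7.94% higher). Hist2h2aa1 stood at -0.59 (adjusted p = 0.261), Hist1h4k at -0.42 (adjusted p = 0.440) and Hist1h2bn at -0.38 (adjusted p = 0.452). Hist1h1c was at 25106, 27066 and 34639 alone and 23156, 35598 and 28414 with gamma delta T cells, groups that overlapped throughout (adjusted p = 0.998). Library 3 with gamma delta T cells was the lowest of all 6 for 40 of 59 members, with a median of -0.54 against the group cultured alone; the other 2 stood at -0.17 and 0.13. That library had the highest Mki67 of all 6, 230 normalized counts, and the lowest Rrm2, 34.2; their part was not tested. Without it the median was -0.02 and 0 members were called. Mki67 did not pass (0.21, adjusted p = 0.892), and Mif4gd was the only gene called in the processing list (0.53 higher, adjusted p = 0.031).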

How the data were processed

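Per the labels' protocols, RNA came from RNeasy Plus Micro columns and sequencing libraries from a SMART-Seq Stranded total RNA kit. Reads were demultiplexed with bcl2fastq and aligned with STAR 2.5.2b to mm10, per the submitters' processing notes; how reads were counted, with which annotation and strand setting, and how they were scaled was not given in the sources used here. What the authors deposited are 3 tables of normalized counts (a signal per gene: counts divided by a factor per library), scaled separately, so comparisons stay within a table. Whole reads were recovered for 100% of values within 0.01 of a whole number, with the depths given above. The members and lists were chosen with earlier results of these data known, and lists follow gene function.

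log2(value + 1) was tested with limma 3.58.1 in R 4.3.3 (trended empirical Bayes) for genes with a table mean of at least 10, with p-values adjusted by Benjamini-Hochberg over every gene tested and a threshold of 0.05; the 3 groups of experiment 2 share a fit. Fold changes are on that scale and understate low genes. Members were named when called (values for up to 8 of smallest p per comparison, or the 5 of smallest p where fewer than 3 passed), as the highest of each class, or as Hist1h1c, Hist1h2bc, Hist2h2be and Hist3h2a in every comparison; members named for groups that did not overlap, and pairs, were picked after their values were seen. The calculation was tested on simulated data. On the recovered reads edgeR 4.0.16 called 0, 21 and 0 members in experiment 1, toxin control against untreated and culture, and DESeq2 1.42.0 called 0, 20 and 0. Their member counts for depleted against toxin control are not given here, so the calls of that comparison are reported from limma alone. Other alternatives were pseudocounts of 0.5 and 5, no filter or a mean of at least 50, quantile normalization, only 2 groups in a fit, a replicate block, each library left out and, chosen after seeing the data, a structural RNA term. Same-numbered libraries did not deviate together in every pair of any table (correlations -0.02, -0.04 and 0.05 in experiment 1, -0.07 and -0.11 in experiment 2, 0.20, -0.04 and 0.23 in culture), so the numbers were used as names. Shared sequence was counted as 75-base windows over GENCODE M21 transcripts.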

Additional observations from a re-analysis of the deposited data

Results flagged for a closer look

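The untreated group of experiment 2 was the only group with 4 to 10 libraries. In it 35 items, named members and summed levels, were checked for a library far from the others, and 1 had such a library. Hist2h2aa1, an H2A gene, stood at 21.6 normalized counts in the untreated replicate 4 and at 38.7 to 44.8 in the other 4 untreated libraries. The gap took 0.740 of the range, and chance alone gives such a gap in about 1 of 20 groups. All of the 75-base windows of Hist2h2aa1 occur in another annotated transcript; the part of read sharing in this value was not tested.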

How the results depend on the processing

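At this depth 9, 9 and 8 members were too low to test, and reads of copied members could be split between them. Without a filter 2 genes were called in experiment 1 and 725 in depleted against toxin control, and DESeq2 called 31 genes in experiment 1 and 137 in depleted against untreated (experiment 2). With only the 2 groups in the fit these were 5 genes for depleted against untreated and 451 for depleted against toxin control. The single call in depleted against untreated gave 0 members with a table mean of at least 50, quantile normalization, edgeR, only 2 groups or the structural RNA term. With that term, chosen after seeing the data, 18, 12, 2, 3 and 145 genes were called in experiment 1, depleted against untreated, depleted against toxin control, toxin control against untreated and culture, 0 members in each, and the medians of the 3 comparisons of experiment 2 were -0.38, -0.53 and 0.086. Signs reversed with it for depleted against toxin control in Hist1h2bc (-0.042), Hist4h4 (-0.26), Hist1h2ac (-0.34), Hist1h4c (-0.53), Hist1h2ai (-0.28), Hist1h2be (-0.79) and Hist1h4d (-0.29) and for toxin control against untreated in Hist1h4c (0.10), Hist1h2be (0.37) and Hist1h4d (0.18). In these comparisons RNAs of the term themselves differed between the groups, so lost calls and reversed signs cannot be read apart from the group. The cause was not tested.

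Values near 0 also changed sign: Hist1h1c (0.0015 in edgeR, 0.0053 in DESeq2) and Hist1h4d (0.087, 0.095) in experiment 1, Hist1h1c (-0.0090, quantile) and Hist3h2a (-0.0011, edgeR) in depleted against untreated, and Hist1h1c in culture (0.026 in edgeR, 0.024 in DESeq2). Leaving out each library in turn gave 0 to 1097 genes, 0 to 46 members and medians of -1.03 to -0.22 in experiment 1; 0 to 580, 0 to 6 and -0.29 to 0.37 in depleted against untreated; 39 to 2716, 0 to 34 and 0.20 to 0.84 in depleted against toxin control; 196 to 2994, 3 to 28 and -0.64 to -0.30 in toxin control against untreated; and 103 to 664, 0 to 0 and -0.36 to -0.02 in culture. Where 1 depleted library was left in experiment 2, its spread is taken from the other groups. Members that changed sign in this way ranged, in experiment 1, from -0.27 to 0.15 (Hist1h1c), -0.49 to 0.18 (Hist1h4d), -0.40 to 0.15 (Hist1h3e) and -0.26 to 0.18 (Hist2h2be); in depleted against untreated, from -0.51 to 0.74 (Hist1h1c), -0.075 to 0.61 (Hist2h2ac), -0.032 to 0.49 (Hist1h2be), -0.34 to 0.79 (Hist1h3e) and -0.081 to 0.11 (Hist3h2a); in culture, from -0.16 to 0.15 (Hist1h1c), -0.32 to 0.023 (Hist1h2be), -0.23 to 0.088 (Hist1h3e), -0.17 to 0.15 (Hist1h4d), -0.013 to 0.27 (Hist2h2ac) and -0.12 to 0.17 (Hist3h2a). Hist3h2a ranged from -0.13 to 0.094 in depleted against toxin control and from -0.076 to 0.14 in toxin control against untreated.

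With the replicate number as a block, although the labels give no pairing, 0 genes and 0 members were called in experiment 1, 150 genes and 1 member in depleted against untreated (median 0.13) and 448 genes and 1 member, Hist1h2bm, in culture, where the libraries numbered 3 in both groups both have low Xist and high Ddx3y; toxin control libraries share no numbers with the groups they are set against.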
